A study of Mus musculus with 6 samples.

Results

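The genes that encode the proteins of the cytosolic ribosome were examined in macrophages from malignant pleural effusions (MPE) of mice. Members were the protein-coding rows of the deposited table whose symbol was Rpl or Rps followed by a digit, together with Rpsa, Rplp0, Rplp1 and Rplp2, and without pseudogene symbols and the Rps6k kinases. This rule took 85 of the 23302 genes in the table. Of these, 77 encode the ribosomal proteins themselves, with 43 in the large subunit, 31 in the small subunit and 3 in the stalk. The other 8 are the paralogs Rpl3l, Rpl7l1, Rpl22l1, Rpl36al, Rpl39l, Rps27l and Rps27rt, and Rps19bp1, which carries a ribosomal symbol but encodes a nucleolar partner of Rps19 and not a ribosomal protein.

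RNA of 3 samples from IL-10−/− mice and 3 samples from WT mice was compared. Both groups were C57BL/6 mice that had received MC38 cells, a mouse colon adenocarcinoma line, into the pleural space, and both were sampled at day 10. Mononuclear cells of the effusion were separated on a Ficoll–Hypaque gradient, and macrophages were then taken with magnetic beads against F4/80. The IL-10−/− mice came from Jackson Laboratory and the WT mice from Vital River, so supplier and genotype cannot be told apart, and how many mice stand behind each sample was not stated. P-values measure the spread between these samples only.

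Il10, the targeted gene, was not absent from libraries labelled IL-10−/−, where it had 59.2, 62.0 and 42.4 FPKM (fragment counts corrected for transcript length and for the total mapped in each library), against 6.43, 33.3 and 7.33 FPKM in WT libraries. A simple loss of transcript is therefore not what the labelled libraries show, and a level per gene does not show whether it encodes protein. An exchange of labels, which would turn every direction given here, was not tested. Macrophage markers were present in all 6 libraries, with a summed level of 11609 to 14755 FPKM over 11 rows in libraries labelled IL-10−/− and 8586 to 10725 FPKM in WT libraries. Lyz2 alone, a lysozyme gene, had 7902, 9252 and 6714 FPKM in libraries labelled IL-10−/−, against 4406, 5460 and 3612 FPKM in WT libraries, and without it the sums overlapped, at 4839 to 5502 FPKM in libraries labelled IL-10−/− and 4179 to 5448 FPKM in WT libraries. Mrc1, the gene of the macrophage mannose receptor, had 99.0, 91.3 and 121.6 FPKM in libraries labelled IL-10−/−, against 215.3, 169.3 and 145.8 FPKM in WT libraries.

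Ribosomal proteins assemble with ribosomal RNA in the nucleolus, and most of them are needed in equal number in every ribosome. Their messages are short, abundant and stable, and in mammals they begin with a 5′ terminal oligopyrimidine (TOP) tract, a C followed by an unbroken run of C and T. The TOP tract places their translation under mTORC1, which acts through the repressor Larp1, so that ribosome production follows nutrients and growth signals. Message level, which was measured here, does not show how much of each message is translated.

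The starts of the messages are shown first because the TOP tract is the element that the members share in sequence. A RefSeq start (GRCm38.p6) was found for 65 of the 85 members. A C followed by at least 4 bases that are each C or T, beginning within 5 bases of the annotated start on the strand of the gene, was present in 30 of these 65 members (46.2%) and in 21.2% of all 27025 genes with a start in the same reference. A C at the annotated start itself, followed by at least 4 such bases, was present in 14 members (21.5%) and in 3.01% of all genes. In both counts the bases before the C were not checked, so a run can begin farther upstream. A gene with several starts counted if any of them matched. Annotated starts often lie some bases away from the start used by the cell, so a gene with no match in this window can still carry a TOP tract. The windows below run from 30 bases before the start to 25 bases from it, for some of the members named later. Most of those shown have a match, a larger share than among all members. Rplp0 and Rpl36a, also named later, had no match and are not shown. Capitals mark the matched bases, and a run of C and T can begin before them.
Rps27 (chr3:90213624-90213678, minus strand): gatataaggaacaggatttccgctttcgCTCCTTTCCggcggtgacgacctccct
Rps27rt (chr9:114982715-114982769, minus strand): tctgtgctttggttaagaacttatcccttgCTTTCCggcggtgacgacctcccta
Rpl38 (chr11:114668550-114668604, plus strand): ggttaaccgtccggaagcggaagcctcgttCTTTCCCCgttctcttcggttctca
Rplp2 (chr7:141447621-141447675, plus strand): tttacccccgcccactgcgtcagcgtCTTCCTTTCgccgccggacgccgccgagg
Rpl14 (chr9:120571487-120571541, plus strand): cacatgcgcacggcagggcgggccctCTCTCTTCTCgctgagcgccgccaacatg
Rpl28 (chr7:4792935-4792989, plus strand): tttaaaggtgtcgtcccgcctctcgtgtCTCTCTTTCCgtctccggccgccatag
Rps9 (chr7:3704011-3704065, plus strand): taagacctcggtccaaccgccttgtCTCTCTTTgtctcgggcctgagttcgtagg
Rpl7l1 (chr17:46782632-46782686, minus strand): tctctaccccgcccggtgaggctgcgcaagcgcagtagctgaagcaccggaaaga
The paralog Rpl7l1 had no match in its window. Among the tested members with a start, the 30 with the tract had a median level of 1569 FPKM and the 33 without it 1300 FPKM, and their median log2 fold changes, IL-10−/− over WT, were -0.12 and -0.07.

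The ribosomal messages were abundant in these cells. Averaged over the 6 libraries, 55 members had at least 1000 FPKM, 26 lay between 100 and 1000 FPKM, and 4 lay under 100 FPKM. In libraries labelled IL-10−/− the 85 members summed to 109626, 129467 and 145651 FPKM, which was 12.4%, 13.1% and 13.8% of all FPKM in the library. In WT libraries they summed to 104850, 158369 and 160815 FPKM, or 11.4%, 14.9% and 14.3%. The lowest and the highest sums were both WT libraries, and the 3 libraries labelled IL-10−/− lay between them. The mean sum was 128248 ± 18044 FPKM in libraries labelled IL-10−/− and 141345 ± 31629 FPKM in WT libraries (SD, n = 3 each), a ratio of 0.91. In bulk RNA, fewer cells of a type and less RNA per cell cannot be told apart.

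**Figure D1:**
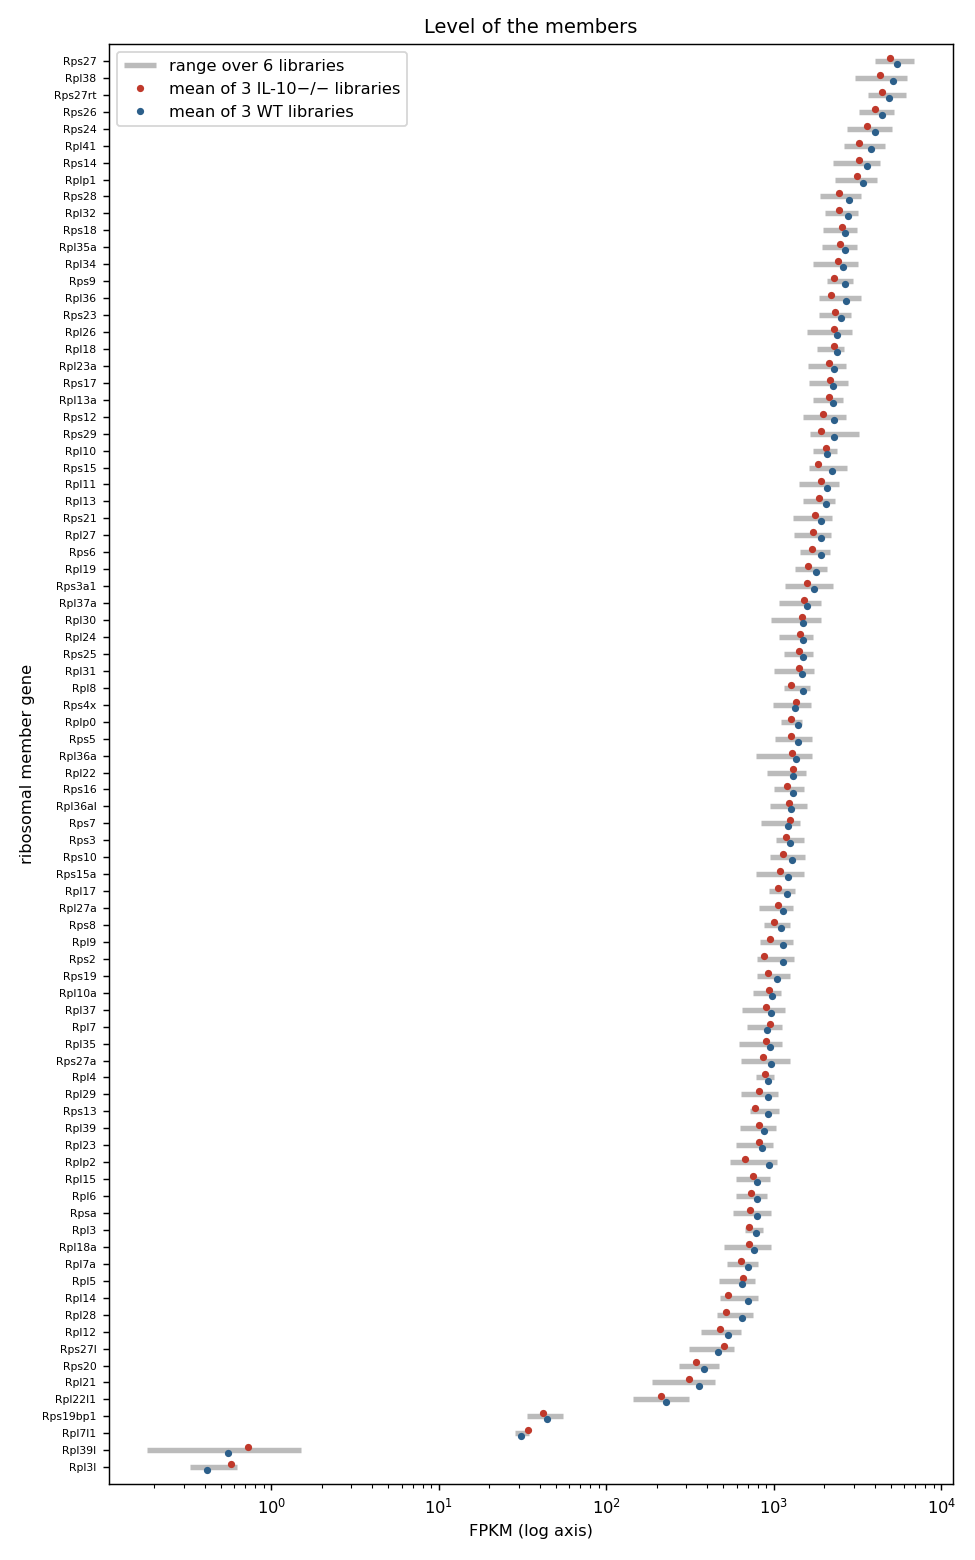
Level of the members in FPKM on a log axis, with the range over the 6 libraries as a grey bar, the mean of the 3 libraries labelled IL-10−/− as a red point and the mean of the 3 WT libraries as a blue point. The 77 ribosomal proteins span from 333 FPKM (Rpl21) to 5184 FPKM (Rps27), and only Rps19bp1, Rpl7l1, Rpl39l and Rpl3l lie under 100 FPKM.

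Among the 77 ribosomal proteins the levels spanned 15.5-fold, although FPKM corrects for length and the proteins are used in nearly equal number. The upper quartile was 2.39 times the lower quartile. Small subunit genes had a median of 1660 FPKM and ranged between 362 FPKM (Rps20) and 5184 FPKM (Rps27). Large subunit genes had a median of 1300 FPKM and ranged between 333 FPKM (Rpl21) and 4722 FPKM (Rpl38). The 3 stalk genes lay at 804 FPKM (Rplp2), 1332 FPKM (Rplp0) and 3289 FPKM (Rplp1). These levels depend on the transcript model that FPKM was computed with and on reads shared with pseudogene copies.

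Rps27 encodes a small-subunit protein with a zinc finger and had the highest level. It stood at 4124, 4809 and 5855 FPKM in libraries labelled IL-10−/−, against 4008, 5400 and 6909 FPKM in WT libraries. Rpl38, a large-subunit protein known in the mouse for its part in the translation of Hox messages, stood at 3316, 4246 and 5390 FPKM in libraries labelled IL-10−/−, against 3068, 6255 and 6060 FPKM in WT libraries. For both genes the first replicate of each group was the lowest of its group, and the groups overlapped. Rps26, a protein at the mRNA exit of the small subunit, ranged from 3218 to 5226 FPKM over all libraries. Rps24 ranged from 2719 to 5069 FPKM, Rpl41, the shortest ribosomal protein, from 2615 to 4601 FPKM, and Rps14, a protein of the platform of the small subunit, from 2266 to 4290 FPKM. At the other end, Rps20 ranged from 272 to 469 FPKM and Rpl21 from 188 to 444 FPKM, and in both WT replicate 1 was the lowest library.

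Members with roles beyond the core of translation had ordinary levels for this family. Rps6, the substrate of the S6 kinases, had 1441, 1841 and 1756 FPKM in libraries labelled IL-10−/−, against 1429, 2177 and 2115 FPKM in WT libraries. Rpl5 and Rpl11 bind 5S ribosomal RNA and, when free, the p53 regulator Mdm2. Rpl5 had 638, 731 and 585 FPKM in libraries labelled IL-10−/−, against 473, 770 and 689 FPKM in WT libraries. Rpl11 had 1777, 1774 and 2218 FPKM in libraries labelled IL-10−/−, against 1407, 2373 and 2450 FPKM in WT libraries. In Rps6, Rpl5 and Rpl11 WT replicate 1 was the lowest library of all, and the other WT libraries lay above the mean of libraries labelled IL-10−/−.

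Rpl13a, known in human monocytic cells for leaving the ribosome to silence inflammatory messages, ranged from 1964 to 2343 FPKM in libraries labelled IL-10−/− and from 1713 to 2600 FPKM in WT libraries. Rps3, which in human cells also binds NF-κB, ranged from 1127 to 1202 FPKM in libraries labelled IL-10−/− and from 1024 to 1513 FPKM in WT libraries. Rps19, whose human gene is mutated in Diamond–Blackfan anaemia, ranged from 875 to 996 FPKM in libraries labelled IL-10−/− and from 790 to 1254 FPKM in WT libraries. In these 3 genes libraries labelled IL-10−/− all lay inside the WT range. The same held for Rpl10, needed for joining of the subunits, which ranged from 1796 to 2206 FPKM in libraries labelled IL-10−/− and from 1716 to 2397 FPKM in WT libraries. It also held for Rps25, used by viral internal ribosome entry sites, which ranged from 1169 to 1637 FPKM in libraries labelled IL-10−/− and from 1149 to 1710 FPKM in WT libraries. Rps27a, which encodes ubiquitin fused to a ribosomal protein, ranged from 684 to 1066 FPKM in libraries labelled IL-10−/− and from 639 to 1243 FPKM in WT libraries. Rpsa, also known as the laminin receptor, ranged from 572 to 809 FPKM in libraries labelled IL-10−/− and from 569 to 960 FPKM in WT libraries. Rpl4, which lines the exit tunnel, ranged from 806 to 937 FPKM in libraries labelled IL-10−/− and from 787 to 1006 FPKM in WT libraries.

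The members moved together from library to library, and the first replicate of each group was low. The 83 members with at least 1 FPKM in at least 3 libraries were tested, and Rpl3l and Rpl39l were too low. For each of the 83, the deviation of log2(FPKM + 1) from its mean over the 6 libraries was taken. The median deviation was -0.27, -0.02 and 0.13 in libraries labelled IL-10−/− and -0.37, 0.25 and 0.26 in WT libraries. WT replicate 1 was the lowest library in 60 members and IL-10−/− replicate 1 in 21, so that 81 of 83 members had their lowest value in a first replicate. The highest value fell in WT replicate 2 in 42 members and in WT replicate 3 in 39. Among the WT libraries alone, WT replicate 1 was the lowest in 80 members, and the highest WT library was 1.63 times the lowest at the median of the members. Among libraries labelled IL-10−/−, replicate 1 was the lowest in 75 members, and the corresponding ratio was 1.33.

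**Figure D2:**
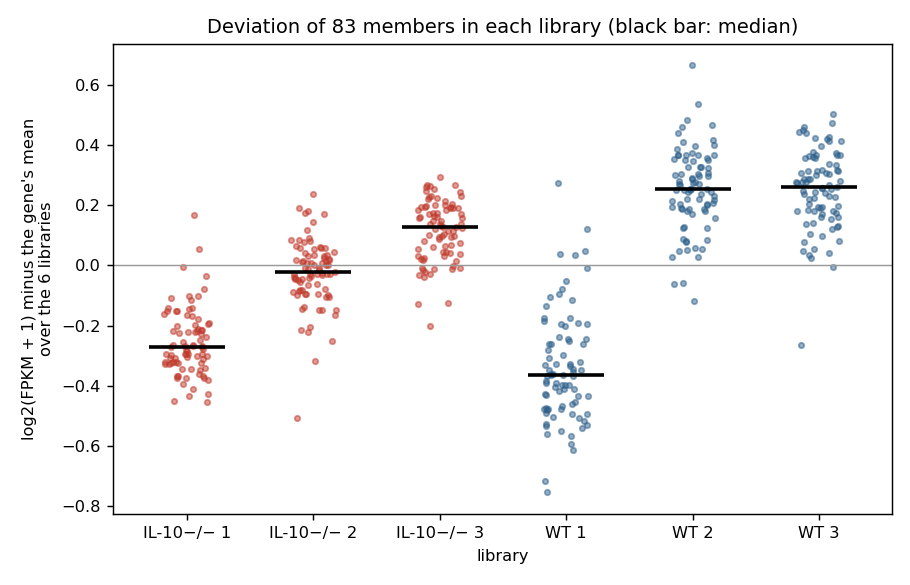
Deviation of log2(FPKM + 1) from the mean of the gene over the 6 libraries, with 1 point for each of the 83 tested members and a black bar at the median, for the 3 libraries labelled IL-10−/− (red) and the 3 WT libraries (blue). The medians are -0.27, -0.02 and 0.13 in libraries labelled IL-10−/− and -0.37, 0.25 and 0.26 in WT libraries, so the WT libraries hold both the lowest and the highest.

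IL-10−/− and WT macrophages were then compared gene by gene. No member passed the test: 0 of 83 had an adjusted p under 0.05 (limma on log2(FPKM + 1), Benjamini-Hochberg over all 11838 genes tested), and 0 of 83 had an unadjusted p under 0.05. Of all genes tested 129, or 1.09%, had an adjusted p under 0.05, of which 72 were higher in libraries labelled IL-10−/− and 57 were lower, and 10.8% had an unadjusted p under 0.05. The median log2 fold change of the members was -0.11, with 74 of 83 below 0, and that of all genes tested was -0.00247, with 50.5% below 0. This direction rested on single libraries and on the scaling, since the median was 0.00457 without IL-10−/− replicate 1, 0.02 without WT replicate 2, 0.01 without WT replicate 3 and 0.01 after quantile normalization, with 35 to 40 of 83 members below 0 in these settings. Without WT replicate 1 it was -0.31, with 82 below 0 and 9 members at an unadjusted p under 0.05, and still no member had an adjusted p under 0.05 (the smallest was 0.16).

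The intervals bound the size of change in these 6 libraries. The 95% intervals of 82 of the 83 members lay inside a log2 change of -1 to 1, and the exception was Rplp2, which reached -1.01. The distance from the estimate to either end of the interval was 0.53 at the median of the 77 ribosomal proteins and ranged from 0.37 to 0.77. A log2 change of -0.5 was inside the interval of 75 members, so moderate decreases were not detectable with this spread. The large-subunit median was -0.08 (38 of 43 below 0), the small-subunit median was -0.12 (29 of 31 below 0), and the 3 stalk genes lay between -0.49 and -0.08.

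**Figure D3:**
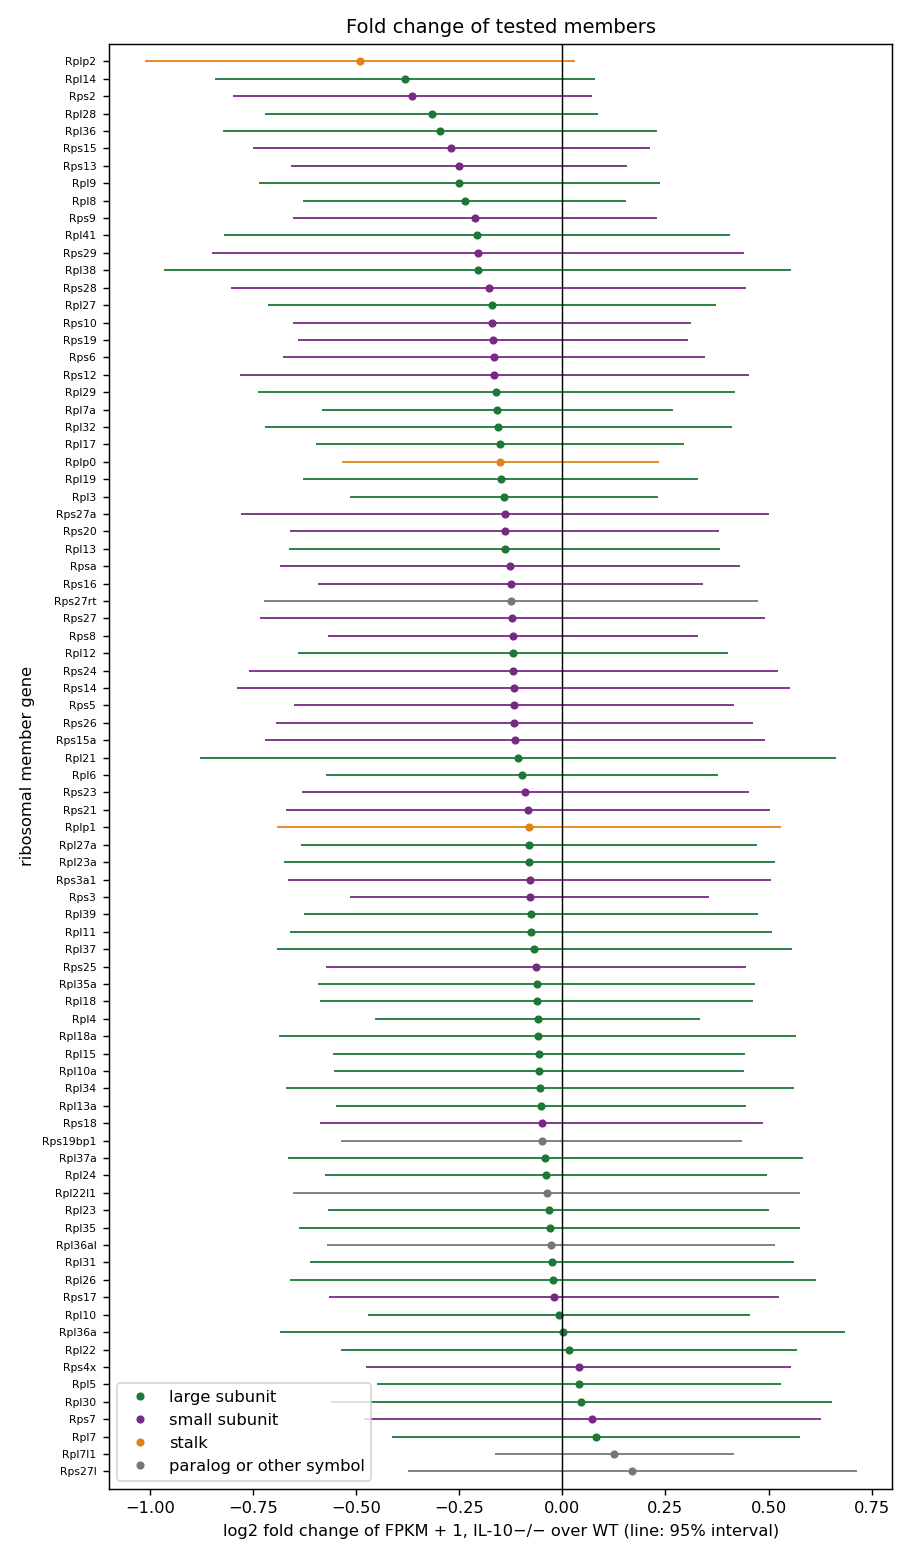
Log2 fold change of FPKM + 1, IL-10−/− over WT, for tested members, each with its 95% interval as a line and colours for large subunit, small subunit, stalk, and paralogs or other symbols. The points run from -0.49 (Rplp2) to 0.17 (Rps27l), and of all tested members 74 of 83 lie below 0, a count that is 35 after quantile normalization.

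The members with the smallest p-values were examined in each library. Rplp2 (chromosome 7, 141447370 to 141451585 of GRCm38, plus strand, 5 exons) encodes an acidic stalk protein that pairs with Rplp1 on Rplp0 and recruits elongation factors. It had 571, 549 and 913 FPKM in libraries labelled IL-10−/−, against 851, 891 and 1050 FPKM in WT libraries. Replicates 1 and 2 labelled IL-10−/− were below all WT libraries, and the third lay within the WT range. The log2 fold change was -0.49 (standard error 0.23; 95% interval -1.01 to 0.03; adjusted p = 0.50 from limma), and the adjusted p ranged from 0.085 to 0.998 over the alternatives.

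Rps2, which lines the entry of the mRNA channel, had 794, 833 and 1010 FPKM in libraries labelled IL-10−/−, against 956, 1125 and 1323 FPKM in WT libraries. Rpl14, a large-subunit protein, had 479, 521 and 604 FPKM in libraries labelled IL-10−/−, against 538, 775 and 801 FPKM in WT libraries. Rpl28, also of the large subunit, had 461, 496 and 601 FPKM in libraries labelled IL-10−/−, against 591, 600 and 748 FPKM in WT libraries. In all 3 genes the highest of libraries labelled IL-10−/− overlapped the lowest WT library, and the means were lower in libraries labelled IL-10−/−. Their log2 fold changes were -0.36, -0.38 and -0.32, and their adjusted p-values from limma were 0.58, 0.59 and 0.62.

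Rpl8 and Rplp0 were the 2 tested members whose groups did not overlap, against 7.59% of all genes tested that lay apart in this direction, and no tested member lay apart in the other direction, against 7.8% of all genes. Rpl8 (chromosome 15, 76904071 to 76906318, plus strand), which lies next to the peptidyl transferase centre, had 1144, 1281 and 1392 FPKM in libraries labelled IL-10−/−, against 1424, 1427 and 1645 FPKM in WT libraries. Rplp0 (chromosome 5, 115559467 to 115563727, plus strand), the base of the stalk and a common reference gene for quantitative PCR, had 1105, 1334 and 1357 FPKM in libraries labelled IL-10−/−, against 1359, 1373 and 1466 FPKM in WT libraries. The gap between the groups was narrow in both. The log2 fold change was -0.24 for Rpl8 (95% interval -0.63 to 0.15) and -0.15 for Rplp0 (95% interval -0.53 to 0.23). Rps13, Rpl36, Rps15 and Rpl9 were also among the 10 smallest p-values, with log2 fold changes from -0.30 to -0.25 and overlapping groups.

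**Figure D4:**
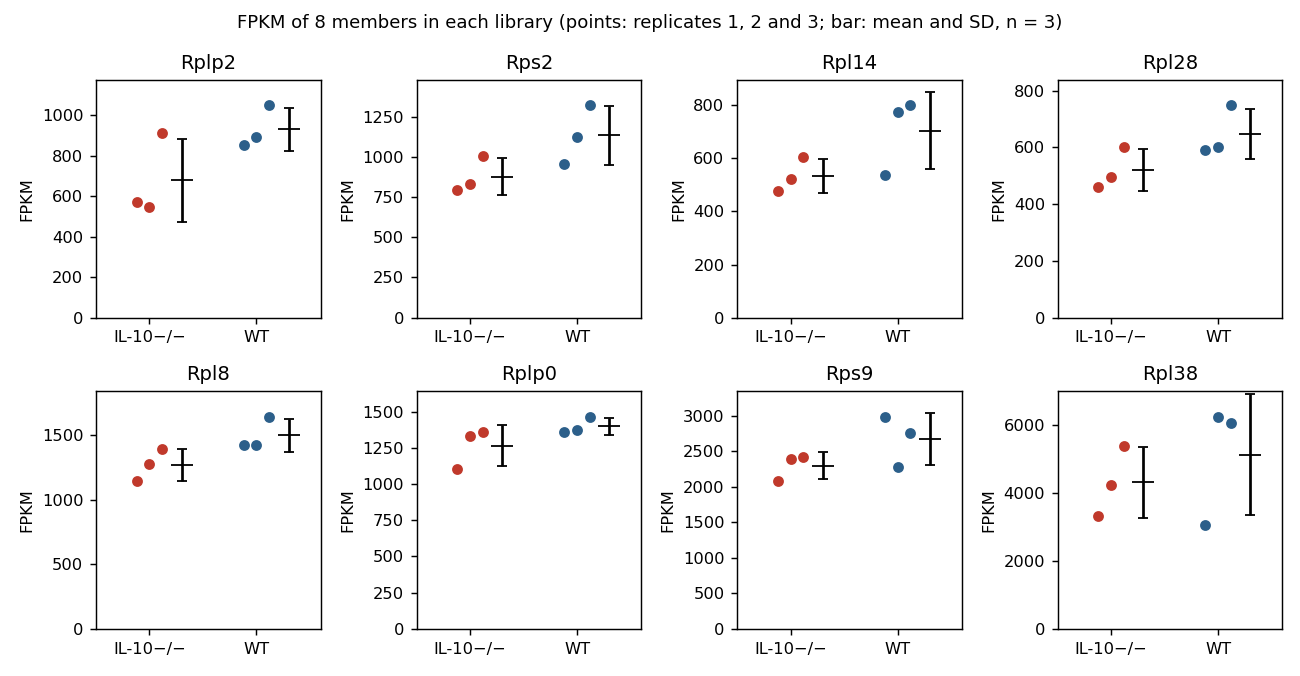
FPKM of 8 members in each library on axes that start at 0, with libraries labelled IL-10−/− in red to the left of WT libraries in blue, points in the order of replicates 1, 2 and 3, and a bar for the mean and SD (n = 3 each). Rpl8 and Rplp0 have separate groups, while WT replicate 1 is the lowest library of Rpl38 at 3068 FPKM and the highest of Rps9 at 2986 FPKM.

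In 73 of the 83 tested members the first replicate was the lowest of its group in both groups. Rps9 and Rps29 were among the members that departed from this common pattern. Rps9, a small-subunit protein near the entry of the mRNA channel, was the member in which WT replicate 1 was highest, with 2075, 2394 and 2417 FPKM in libraries labelled IL-10−/−, against 2986, 2270 and 2757 FPKM in WT libraries. Rps29, a small zinc-binding protein, had 1789, 1637 and 2347 FPKM in libraries labelled IL-10−/−, against 1913, 3242 and 1700 FPKM in WT libraries. A single WT library, replicate 2, carried its highest value. For Rpl36a, in contrast, WT replicate 1 lay at 780 FPKM and the other WT libraries at 1692 and 1596 FPKM. When every library was scaled to the same median of the members, so that the members are read relative to each other, 0 of 83 had an adjusted p under 0.05, and Rplp2 (-0.44), Rpl14 (-0.33) and Rps2 (-0.31) stayed farthest below the rest.

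The paralogs were read beside their parent genes, since near-identical copies share reads. Rps27rt is an intronless copy of Rps27 on chromosome 9 (GRCm38, 114982371 to 114982740, minus strand), whereas Rps27 has 4 exons on chromosome 3 (90212522 to 90213651, minus strand), and it had 3734, 4322 and 5272 FPKM in libraries labelled IL-10−/−, against 3653, 4878 and 6180 FPKM in WT libraries. It stood at 89.5% to 91.1% of Rps27 in all 6 libraries. The 255 coding bases of both genes are the same at every position, and the 345-base transcript of Rps27 shares an unbroken stretch of 341 bases with that of Rps27rt. Their start windows above share the bases from CTTTCC, the end of the Rps27 tract, onward. Reads from the stretch cannot be assigned to one of the copies, so the level of each is uncertain, and so is their order among the members. Rps27l, in contrast, differs from Rps27 at 61 of 255 coding bases (76.1% identity) and shares no stretch longer than 11 bases. The coding sequences follow, with the bases at which Rps27l differs in capitals.
Rps27: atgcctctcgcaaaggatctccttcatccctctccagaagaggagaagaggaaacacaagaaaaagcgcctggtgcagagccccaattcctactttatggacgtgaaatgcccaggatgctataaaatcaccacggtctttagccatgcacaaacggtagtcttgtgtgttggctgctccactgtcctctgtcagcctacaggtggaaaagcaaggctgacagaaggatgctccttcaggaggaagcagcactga
Rps27l: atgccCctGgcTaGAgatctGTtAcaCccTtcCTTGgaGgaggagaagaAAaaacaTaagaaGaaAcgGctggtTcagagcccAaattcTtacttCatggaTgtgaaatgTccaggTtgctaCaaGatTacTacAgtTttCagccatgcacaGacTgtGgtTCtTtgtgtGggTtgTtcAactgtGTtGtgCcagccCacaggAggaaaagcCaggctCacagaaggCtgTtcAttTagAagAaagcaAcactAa
Rps27l, a p53-induced paralog in human and mouse cells, had 464, 540 and 512 FPKM in libraries labelled IL-10−/−, against 310, 503 and 576 FPKM in WT libraries. It had the most positive log2 fold change of the members, 0.17, with an interval from -0.37 to 0.71, and its direction turned without WT replicate 1. Relative to Rps27 it stood at 10.4% ± 1.44 in libraries labelled IL-10−/− and 8.47% ± 0.80 in WT libraries (SD, n = 3 each).

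Rpl36al, whose coding sequence has 87.9% identity to that of Rpl36a and shares no stretch over 24 bases with its transcript, had 1006, 1239 and 1438 FPKM in libraries labelled IL-10−/−, against 951, 1582 and 1262 FPKM in WT libraries. It reached 79.0% to 121.9% of Rpl36a over the 6 libraries. Rpl22l1, which in mouse cells is held down by Rpl22, had 242, 211 and 187 FPKM in libraries labelled IL-10−/−, against 145, 313 and 227 FPKM in WT libraries, or 12.5% to 21.5% of Rpl22. Rpl7l1, a nucleolar relative of Rpl7, stayed within 33.4 to 34.7 FPKM in libraries labelled IL-10−/− and 28.6 to 33.5 FPKM in WT libraries, and Rps19bp1 ranged from 34.1 to 48.8 FPKM in libraries labelled IL-10−/− and from 33.6 to 55.3 FPKM in WT libraries. The muscle paralog Rpl3l had at most 0.62 FPKM and the testis-enriched Rpl39l at most 1.51 FPKM, which is under 0.2% of Rpl3 and Rpl39.

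Genes that encode ribosomal proteins under other symbols were read in the same way. Fau, which encodes a ubiquitin-like protein fused to a small-subunit protein, had 2387, 2801 and 3508 FPKM in libraries labelled IL-10−/−, against 2917, 3815 and 3557 FPKM in WT libraries. Gnb2l1, the scaffold also called Rack1, had 606, 751 and 691 FPKM in libraries labelled IL-10−/−, against 664, 714 and 756 FPKM in WT libraries. Neither gene passed the adjusted test or had an unadjusted p under 0.05 (limma), and both overlapped between the groups. Ribosomal pseudogenes numbered 137 rows, and their summed level was 26649 to 33199 FPKM in libraries labelled IL-10−/− and 26188 to 41088 FPKM in WT libraries, with the lowest sum again in WT replicate 1. Of the 75 pseudogenes tested, 0 passed the adjusted test, 2 had an unadjusted p under 0.05, and the median of their log2 fold changes was -0.17.

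The machinery that builds and drives ribosomes was read from lists of textbook genes. Of 87 ribosome biogenesis factors tested, 0 passed the adjusted test, 0 had an unadjusted p under 0.05, and the median fold change on the log2 scale was 0.000116. Of 24 elongation factors and other TOP messages, 0 passed the adjusted test, 0 had an unadjusted p under 0.05, and the median was -0.09. Of 37 initiation factors, 0 passed the adjusted test, 3 had an unadjusted p under 0.05, and the median was -0.09. Of 77 mitochondrial ribosomal proteins, 0 passed the adjusted test, 2 had an unadjusted p under 0.05, and the median was 0.02, next to -0.11 for the cytosolic members. The members with the smallest p-values in these lists were Tex10 and Gar1, Eef1b2 and Eif3h, Eif2b2 and Eif5, and Mrpl2 and Mrpl44. Short nuclear-encoded messages of the respiratory chain (83 tested, median -0.02) and mitochondrially encoded messages (13 tested, median -0.10) had 0 genes that passed the adjusted test and 0 with an unadjusted p under 0.05.

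A further list held regulators and targets of mTORC1 and kinases named after Rps6. Of its 32 tested genes 1 passed the adjusted test, against 1.09% of all genes. An unadjusted p under 0.05 (limma) was seen in 3 of 32, against 10.8% of all genes. Ddit4 (chromosome 10, 59949675 to 59951770), also called Redd1, a stress-induced inhibitor of mTORC1, fell to 24.2, 24.0 and 41.9 FPKM in libraries labelled IL-10−/−, against 114.0, 114.8 and 123.9 FPKM in WT libraries. The groups did not overlap. The log2 fold change was -1.98 (standard error 0.22; adjusted p = 0.0065 from limma, and 0.00087 to 0.096 over the alternatives, with the highest value without a filter on low genes). The list as a whole had a median of -0.00534 on the log2 scale, with 16 genes above and 16 below 0. Sesn2, an mTORC1 inhibitor of the amino acid branch, had 9.04, 9.47 and 9.49 FPKM in libraries labelled IL-10−/−, against 18.4, 12.1 and 14.3 FPKM in WT libraries, which missed the threshold (limma, adjusted p = 0.19).

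Ribosomal messages are short, and other short messages moved between the libraries in the same order as the members. At greater lengths the values of members and of other genes lay apart in most libraries. The members had a median annotated transcript length of 835 bases, against 2846 bases for the 10460 other protein-coding genes tested with a length. In 101 other protein-coding genes with transcripts under 500 bases, the median deviation was -0.24, -0.08 and 0.10 in libraries labelled IL-10−/− and -0.33, 0.26 and 0.33 in WT libraries, the order seen in the members. From 750 to under 1000 bases (404 genes) it was -0.09, 0.02 and 0.05 in libraries labelled IL-10−/− and -0.24, 0.12 and 0.18 in WT libraries. From 2000 to under 3000 bases (2437 genes) it lay within 0.03 of 0 in every library, and at 5000 bases or more (1799 genes) WT replicate 1 stood at 0.13 and WT replicate 3 at -0.09. Among the members this trend with length was not seen in WT replicate 1. It stood at -0.42 in the 11 members under 500 bases, at -0.40 in 22 from 500 to under 750 and at -0.31 in 23 from 750 to under 1000. It stood at -0.34 in the 15 members from 1000 to under 1500 bases, at -0.37 in 6 from 1500 to under 2000 and at -0.36 in 4 from 2000 to under 3000. Other genes of the last 3 length classes stood at -0.13, -0.05 and 0.00489 in WT replicate 1. Members under 500 bases stood at -0.27 in IL-10−/− replicate 1, 0.35 in WT replicate 2 and 0.28 in WT replicate 3. From 1500 to under 2000 bases these libraries stood at -0.30, 0.20 and 0.34, and from 2000 to under 3000 bases nearer 0, at -0.08, 0.18 and 0.15. Each length is that of the principal annotated transcript, and whether these cells used that transcript was not known. For some members it was long, such as 2989 bases for Rpl18 and 2051 bases for Rpl22. Rps20 (3706 bases) and Rps15a (5179 bases) were in none of the member classes given. The comparison by length among the members depends on these annotations. The part of transcript length in the members' values was not tested as a cause.

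**Figure D5:**
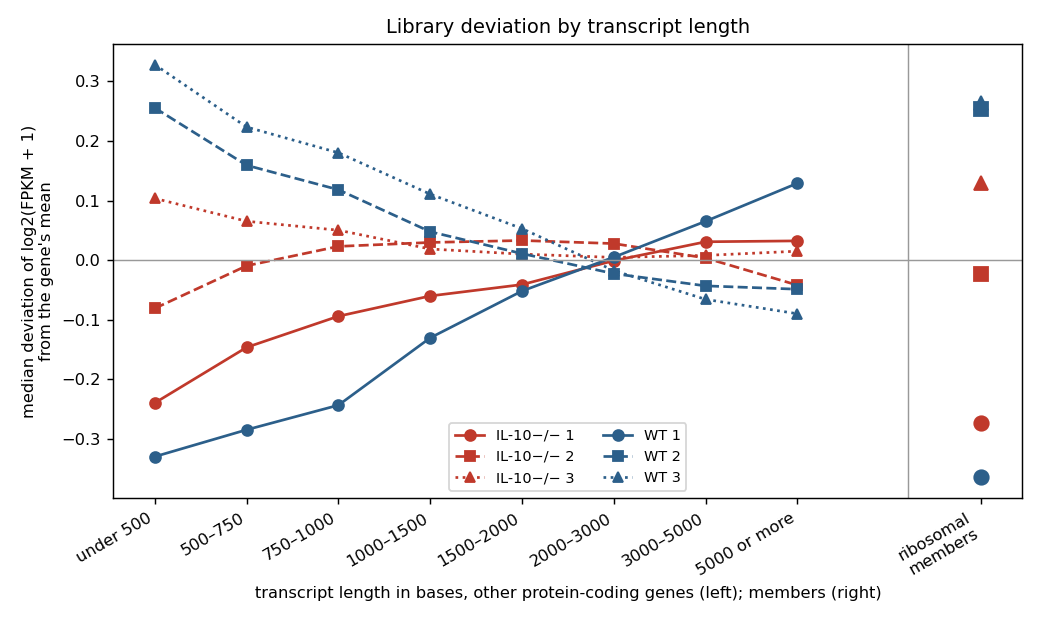
Median deviation of log2(FPKM + 1) from the mean of the gene by transcript length in other protein-coding genes (lines) and in the 83 ribosomal members (right), for libraries labelled IL-10−/− in red and WT libraries in blue. The libraries fan out at short lengths, with WT replicate 1 at -0.33 and WT replicate 3 at 0.33 under 500 bases, and meet from 2000 to under 3000 bases.

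The trend with length of the other genes was subtracted in each library, an alternative chosen after seeing the data. The median deviation of the members became -0.16, -0.03 and 0.08 in libraries labelled IL-10−/− and -0.11, 0.17 and 0.08 in WT libraries. It came nearer 0 in every library other than IL-10−/− replicate 2, which changed little. IL-10−/− replicate 1 became the lowest library in place of WT replicate 1. The median log2 fold change was then -0.08, with 64 of 83 members below 0. The subtraction used the same annotated lengths and shares their uncertainty. Again 0 members had an adjusted p under 0.05, and 3 had an unadjusted p under 0.05, with Rpl14 lowest at 0.023. Base composition also varied with the fold change. The third of the members with the lowest GC content (40.6% to 49.2%) had a median log2 fold change of -0.07, and the third with the highest (53.1% to 60.8%) had -0.15. Across genes, Spearman's rho between fold change and GC content was -0.45 over the 83 members and -0.15 over 10460 other protein-coding genes, values that share the same 6 libraries and are given as a description.

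Markers of other cells differed between the groups and are given beside the ribosomal values. The 11 neutrophil markers summed to 544 to 1215 FPKM in libraries labelled IL-10−/− and 2990 to 4700 FPKM in WT libraries. Most of each sum was S100a8 and S100a9. By the test 6 of 11 fell, against 1.09% of all genes called in either direction. The groups lay apart in 7, with libraries labelled IL-10−/− below, and overlapped in Camp, Ltf, Ngp and Mmp8. A positive log2 fold change was seen in 2 of the 11. The 5 platelet markers summed to 482 to 935 FPKM in libraries labelled IL-10−/− and 2594 to 3299 FPKM in WT libraries. Most of each sum was Pf4. Only 2 of the 5, Pf4 and Ppbp, were tested, and both fell. Gp9, Itga2b and Gp1bb had at most 2.62 FPKM in any library. The 6 erythroid markers summed to 971 to 3786 FPKM in libraries labelled IL-10−/− and 5694 to 12685 FPKM in WT libraries, and 7 B cell markers to 10.8 to 29.3 FPKM in libraries labelled IL-10−/− and 37.6 to 44.6 FPKM in WT libraries. The 11 T and NK cell markers summed to 91.3 to 208.9 FPKM in libraries labelled IL-10−/− and 83.5 to 124.5 FPKM in WT libraries. Their log2 fold change was positive in 8 and negative in 3 (median 0.64). None passed the adjusted test, and 3 had an unadjusted p under 0.05 (limma). In 4 of the 11 the groups lay apart with libraries labelled IL-10−/− above, against 7.8% of all genes tested. The 8 mesothelial and epithelial markers, which the injected MC38 cells can also carry, summed to 7.13 to 12.7 FPKM in libraries labelled IL-10−/− and 7.31 to 13.0 FPKM in WT libraries. These sums separated the labelled groups for the neutrophil, platelet, erythroid and B cell lists, whereas the ribosomal sums did not. Of the 26 genes of immediate early and dissociation stress, 25 had a negative log2 fold change (median -0.49), against 50.5% of all genes tested. Of these 26 genes 13 had an unadjusted p under 0.05, 9 lay apart with libraries labelled IL-10−/− below WT libraries, and 1 passed the adjusted test, whereas 10.8% of all genes had an unadjusted p under 0.05 and 7.59% lay apart in this direction. This gene, Hspa1a, a heat shock gene with a near-identical neighbour, fell to 19.2, 7.10 and 13.7 FPKM in libraries labelled IL-10−/−, against 43.9, 112.3 and 147.5 FPKM in WT libraries (adjusted p = 0.040 from limma, 0.0050 to 0.26 over the alternatives). This call was lost with any 1 library left out (adjusted p = 0.064 to 0.16) other than WT replicate 1. The part of other cells and of stress in the ribosomal values was not tested.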

How the data were processed

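Poly(A) RNA of MPE macrophages from 3 IL-10−/− and 3 WT samples, grouped by the genotype in their labels, was prepared with a NEBNext Ultra kit and sequenced as paired ends. The authors deposited 1 table with FPKM per gene and library (submitters' build GRCm38). The aligner, the quantification tool, the annotation and strand use were not given in the sources used here. Antisense and near-identical genes are therefore uncertain. Columns with the authors' fold changes, p-values, q-values and up or down marks were not used.

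Genes that reached 1 FPKM in 3 or more of the 6 libraries were fitted in limma 3.58.1 under R 4.3.3 (intensity trend, two-sided, Benjamini-Hochberg over all genes tested) on log2(FPKM + 1), so that fold changes of low genes are understated. Lists were described by counts and medians. Members and lists were chosen with earlier results of these data known. Named members were those with an adjusted p under 0.05, the 10 smallest p-values, the 8 highest and 8 lowest levels, the paralogs with their parents, and a fixed set with known roles. Some genes that these rules take are not reported here. Companion lists gave every called gene or the 2 with the smallest p. Members singled out for departing from the common pattern (Rps29, Rpl36a and others) were chosen after their values were seen. Transcript lengths and GC content came from the principal transcripts of GENCODE release M21 (23136 identifiers found), and starts from RefSeq.

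Read totals are unknown. Among genes under 0.1 FPKM in all libraries, the commonest ratio between libraries put depth at 0.993 to 1.44 times that of WT replicate 1, with 40.6% to 44.2% of ratios within 0.02 (log2) of those of small whole numbers, so reads were not recovered. The labels do not say that a replicate number marks a shared litter, batch or day, so the numbers were not taken as pairs. The code was tested on simulated data. Alternatives were a pseudocount of 0.1, no filter, a filter at 5 FPKM, equal sums as in TPM, quantile normalization, equal sums of other genes, equal member medians, no trend, array weights, a replicate block, protein-coding genes only, core members only and each library left out. Removal of the length trend and leaving out both first replicates were added after seeing the data.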

Additional observations from a re-analysis of the deposited data

How the results depend on the processing

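No ribosomal member had an adjusted p under 0.05 in the fit as reported or in any of the 19 other fits, nor did any of the 77 core members read alone (median log2 fold change -0.12). At an unadjusted p under 0.05 there were 7 members with array weights, 4 with the replicate block, 3 with the length trend removed, 1 without both first replicates and 0 to 9 with single libraries left out. The median log2 fold change of the members was -0.11 and ranged from -0.31 to 0.02 with single libraries left out, -0.25 with array weights, -0.02 with equal sums, 0.01 with quantile normalization and -0.19 without both first replicates. These moves were smaller than the spread between libraries (0.29). Leaving out a single library could hardly have moved the median farther than that, so the comparison does not show stability. The sign rests on single libraries. The ratio of summed FPKM was 0.91 and ranged from 0.80 to 0.97 with single libraries left out.

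Over all genes, 72 were higher and 57 lower, against 22 and 10 without a filter, 248 and 234 with array weights, 36 and 25 with the replicate block, and 29 and 30 without both first replicates. Without IL-10−/− replicate 1 the counts were 23 and 20, without IL-10−/− replicate 2 they were 27 and 24, without WT replicate 2 they were 36 and 15, and without WT replicate 3 they were 26 and 13. Companion lists held 2 called genes, against 0 without a filter, 9 with array weights, 1 with the replicate block, and 1 to 4 with single libraries left out. The numbers were not taken as pairs because the labels do not say that they mark pairs. Same-numbered libraries had correlations of deviations of 0.09, 0.20 and 0.09. These were the highest of the 9 correlations between the groups, the others running from -0.17 to 0.05. Every library thus correlated best with its own number, a hint from the data and not from the design. With the replicate block Hspa1a lost its call (adjusted p = 0.10 from limma) and Ddit4 kept it (adjusted p = 0.027 from limma). The called neutrophil and platelet markers were not followed over the alternatives. Hspa1a lost its call in 8 and Ddit4 in 2 of 19 alternatives. Rps27 ranged from -0.32 to 0.07 with single libraries left out (0.068 without WT replicate 3), Rps29 from -0.39 to 0.08 (0.077 without WT replicate 2) and Rps27l from -0.10 to 0.35, with -0.036 for Rps27l without both first replicates. No cause of these changes was tested. Read totals were not used, so the spread between libraries is the limit.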
